A study of Homo sapiens with 2 samples.

Results

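The barcodes described here carried transcripts of an epithelial adhesion molecule and of fibrillar collagens at the same time. A 10x barcode stands for 1 droplet, which normally holds 1 cell, and its transcripts are counted as unique molecular identifiers (UMIs). Members were selected on measured values: at least 10000 UMIs, at most 20% of UMIs from mitochondrial genes, fewer than 300 MALAT1 UMIs per 10000, at least 2 EPCAM UMIs per 10000, and at least 5 UMIs per 10000 of COL1A1, COL1A2 and COL3A1 together. In all, 103 of 4898 barcodes met the rule, 83 in the untreated library (CNT) and 20 in the library exposed to cytokines (3CK). The genes of the rule are therefore given only as a description.

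The study derived colon organoids from the established human iPS cell line 1383D6 (iPS cells are body cells reprogrammed to an embryonic-like state) and compared cultures with and without 3CK, a mix of TNF-α, IFN-γ and IL-1β given for 8 days. All organoids came from this 1 line and had passed through the same endoderm, hindgut and colonic culture steps in Matrigel, so the CNT culture differed from the 3CK culture by the cytokines only, as far as the labels say. About 8300 dissociated cells per culture were loaded for 10x 3′ sequencing (v3.1). Each condition is 1 library with no replicate, so no difference between conditions or barcode classes was tested. Every interval below is a 95% interval within 1 library. Intervals of counts and shares cover counting error alone, and intervals of medians the spread over the barcodes of that library. A ratio of medians has the interval of the member median, with the other median held fixed.

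Epithelial cells line the gut as a sealed sheet: EPCAM and E-cadherin hold neighbours together and claudins close the gaps between them. Mesenchymal cells beneath the sheet secrete type I and type III collagen and the small proteoglycans decorin and lumican, which make up the connective tissue. The 2 programmes are held in separate cells in the gut wall, although cells in epithelial-mesenchymal transition carry parts of both, and in droplet sequencing a droplet that captures a pair of cells carries both as well. Whether a member barcode held 1 cell with both programmes or cells of 2 kinds cannot be told apart from transcript counts, and no test of it was made.

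The CNT library held 3257 barcodes and 105314879 UMIs, and the 3CK library 1641 barcodes and 94887438 UMIs, over 36601 genes. The depth, mitochondrial and MALAT1 limits left 1315 CNT barcodes with a median of 66545 UMIs and 854 3CK barcodes with a median of 96133. Of these, 887 CNT and 640 3CK barcodes were epithelial (EPCAM at least 2, collagen under 5 per 10000), 266 and 99 were mesenchymal (EPCAM under 1, collagen at least 5), and 79 and 95 were neither. No barcode sequence occurred in both libraries. Members made up 6.31% of the eligible CNT barcodes (83 of 1315, 5.06 to 7.76) and 2.34% of the eligible 3CK barcodes (20 of 854, 1.44 to 3.59). The 2 shares are not a comparison of cell numbers, because collagen itself was lower in the 3CK mesenchymal barcodes, with a median of 24.4 per 10000 against 60.2 in CNT.

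The rule's own genes describe where the members sat. EPCAM, the cell adhesion molecule of chr2:47345158-47387601 (plus strand, GRCh38), ran from 2.01 to 44.8 UMIs per 10000 in CNT members, with a median of 5.68, against medians of 9.38 in epithelial and 0.173 in mesenchymal barcodes. The 3 collagen genes together ran from 5.03 to 134, with a median of 16.3, against 0.599 in epithelial and 60.2 in mesenchymal barcodes. These genes encode the chains of type I collagen, COL1A1 (chr17:50184101-50201632, minus strand) and COL1A2 (chr7:94394895-94431227, plus strand), and of type III collagen, COL3A1 (chr2:188974373-189012746, plus strand). The median member thus lay below the epithelial barcodes in EPCAM and below the mesenchymal barcodes in collagen. In 3CK members EPCAM ran from 2.09 to 10.6 with a median of 6.78, and collagen from 5.09 to 44.3 with a median of 8.59.

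Some members lay near a limit. In CNT 13 of 83 members had less than 1.5 times the EPCAM limit and 19 less than 1.5 times the collagen limit, and in 3CK 6 and 7 of 20. The CNT member nearest the EPCAM limit had 2.01 UMIs per 10000 and the nearest barcode outside it 1.92, and the corresponding collagen values were 5.03 and 4.95. There was no gap in either measure at its limit in CNT. In 3CK the nearest EPCAM values were 2.09 inside and 1.39 outside, and the nearest collagen values 5.09 and 4.93. The plot of EPCAM against collagen shows the members as the region between 2 dense groups.

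**Figure D1:**
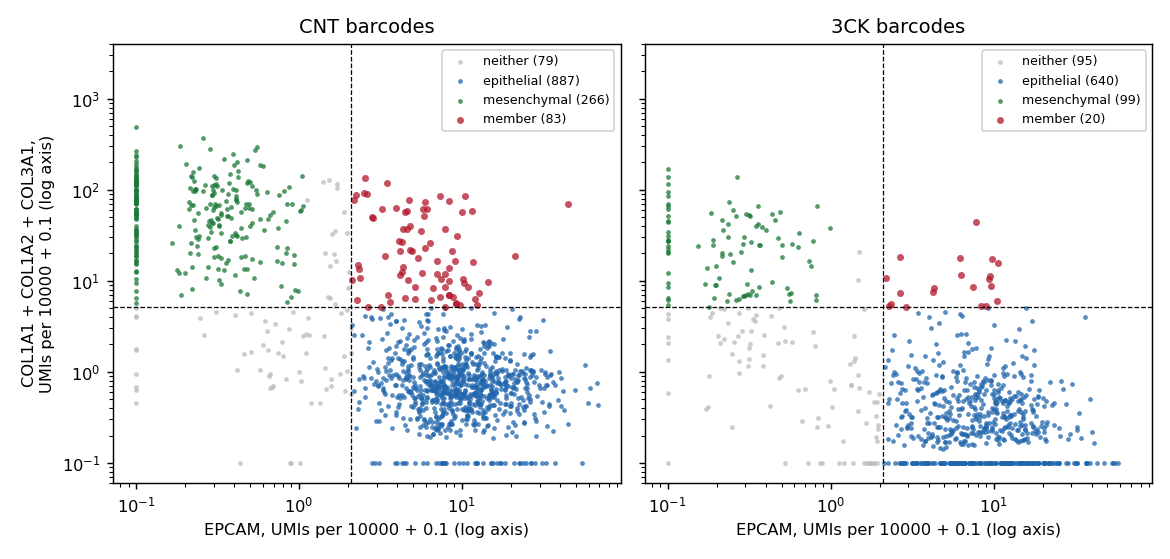
EPCAM UMIs per 10000 (x axis) against COL1A1, COL1A2 and COL3A1 UMIs per 10000 (y axis), both on log axes after adding 0.1, for every eligible barcode of CNT (left) and 3CK (right); each point is 1 barcode, coloured by class, and lines mark the limits of the rule. The 83 CNT and 20 3CK members lie between the epithelial barcodes at lower right and the mesenchymal barcodes at upper left.

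Transthyretin (TTR, chr18:31557009-31598833, plus strand), a hormone carrier made by liver and by fetal endoderm, was not in the rule and marks much of the epithelium of these organoids. It ran from 6.65 to 1512 UMIs per 10000 in CNT members, with a median of 519 (422 to 629). The median was 580 in epithelial and 8.35 in mesenchymal barcodes, and 79 of 83 members lay above the mesenchymal median. In 3CK members TTR ran from 3.31 to 401 with a median of 199.8, against 126 in epithelial and 2.04 in mesenchymal barcodes. The median CNT member had 0.894 times the epithelial median, with 37 of 83 members above it, and the median 3CK member 1.58 times, with 14 of 20 above. The labels call the samples colon epithelial cells, and the members carried EPCAM, TTR and COL1A1 together, with COL1A1 at 1117 CPM (UMIs of the gene per 1000000 UMIs of the pool) in the pooled CNT members, 22.6 in the epithelial pool and 2791 in the mesenchymal pool.

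The median CNT member was deeper than the median of either class taken alone and shallower than the median pair of barcodes. They had 12171 to 201446 UMIs, with a median of 87633 (73260 to 99529), against medians of 70869 in epithelial and 55581 in mesenchymal barcodes. The ratio of medians was 1.24 (1.03 to 1.40) to the epithelial barcodes, and 53 of 83 members were above the epithelial median. That ratio was 1.08 (0.870 to 1.28) for members with collagen of at least 20 per 10000, and 1.11 (0.944 to 1.29) when the rule was read after thinning to 10000 UMIs, and both intervals include 1. The ratio to the mesenchymal barcodes was 1.58 (1.32 to 1.79), and 68 of 83 members were above their median. The sums of every pair of 1 epithelial and 1 mesenchymal CNT barcode, 235942 pairs, had a median of 133407 UMIs and a middle 90% from 66577 to 234201. The median member had 0.657 times the median of the pair sums, with 70 of 83 members below that median and 28 below the lower end of the middle 90%.

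The 3CK members lay in the same order. Their depth ran from 52616 to 149242 UMIs with a median of 108018, which was 1.11 times the epithelial and 1.34 times the mesenchymal median. The 63360 pair sums had a median of 185294 UMIs, and all 20 members were below it, 3 of them below the lower end of the middle 90% at 90334. Of the pair sums, 83.4% in CNT and 58.6% in 3CK met the EPCAM and collagen limits themselves. The sums assume that both barcodes of a pair are captured in full, which a droplet with a pair of cells need not do.

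**Figure D2:**
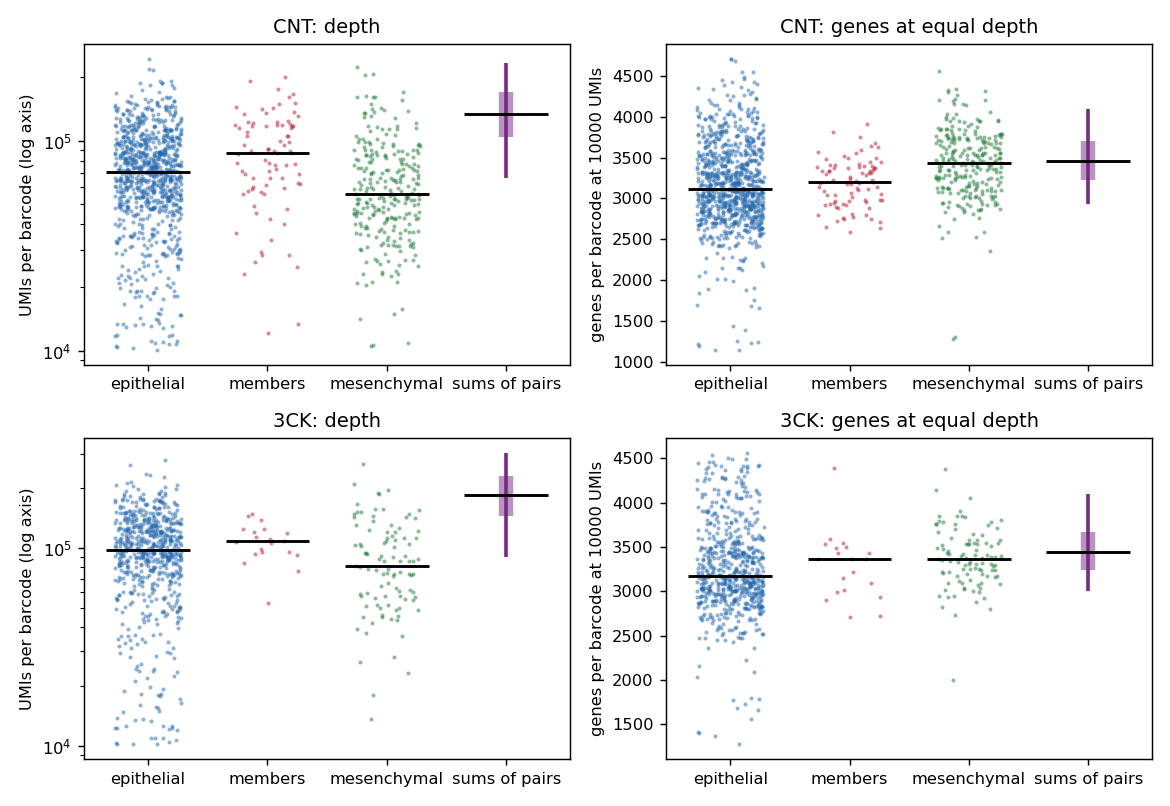
UMIs per barcode (log axis) and genes at a common depth of 10000 UMIs (y axes) for member, epithelial and mesenchymal barcodes and for the sums of every epithelial and mesenchymal pair, in CNT and 3CK; each point is 1 barcode, black lines are medians, and for the pair sums the thick bar spans the quartiles and the thin bar the middle 90%. In CNT the member median of 87633 UMIs lies between the epithelial median of 70869 and the pair median of 133407.

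At a common depth of 10000 UMIs the median member held slightly more genes than the median epithelial barcode and fewer than the median pair sum. CNT members had 2588 to 3918 genes with a median of 3202, against medians of 3115 in epithelial barcodes, 3439 in mesenchymal barcodes and 3454 in the pair sums. The ratio to the epithelial median was 1.03 (0.995 to 1.06), an interval that includes 1, and 49 of 83 members were above that median. With a MALAT1 limit of 20 per 10000, added after seeing the data, it was 1.04 (1.002 to 1.08). Both intervals cover the spread over member barcodes of 1 library with the epithelial median held fixed, so neither tests a difference. The ratio to the mesenchymal median was 0.931, and 15 of 83 members were above that median. In 3CK the medians were 3365 in members, 3173 in epithelial barcodes, 3368 in mesenchymal barcodes and 3440 in the pair sums, with 12 of 20 members above the epithelial median. The number of genes thus placed the median CNT member nearer the epithelial barcodes than the pair sums, and the median 3CK member near the mesenchymal barcodes.

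Each member was then described by a mesenchymal weight. It is the share of its transcripts that best fitted its own library's mesenchymal profile, with the remainder given to that library's epithelial profile. In CNT the fit used 585 genes that differed at least 4-fold between the 2 profiles, 266 higher in epithelium and 319 higher in mesenchyme. The genes of the rule were left out. The CNT members' weights ran from 0 to 0.957, with a median of 0.275 (0.185 to 0.394) and quartiles of 0.136 and 0.483. Of the 83 members, 17 were below 0.1, 59 (71.1%) were between 0.1 and 0.8, and 7 were above 0.8. The same middle range held 119 of 887 epithelial barcodes (13.4%) and 1 of 266 mesenchymal barcodes, so a mixed profile was not limited to members. Those epithelial and mesenchymal barcodes set the 2 profiles and the members did not. This favours weights near 0 and 1 in them in advance, so the shares are a description only. Weights are a continuous range, and the 2 boundaries only divide it.

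The weight divides a member's UMIs into an epithelial and a mesenchymal part, with medians of 57534 and 20845 UMIs. Both parts reached 10000 UMIs in 58 of 83 members (69.9%) and in 83 of 887 epithelial barcodes (9.36%). The epithelial barcodes set their own profile, so these shares are a description only. Among the pair sums the mesenchymal barcode gave a median share of 0.455 of the UMIs, with a middle 90% from 0.205 to 0.780. Of the CNT members 40 had a weight inside that range, 35 below it and 8 above it. The pair value is a share of UMIs, and no weight was fitted to the pair sums. The range also covers pairs that missed the EPCAM or collagen limit. Whether members leaned to the epithelial side of such pairs was therefore not tested. In 3CK the weight was fitted to the 3CK profiles over 443 genes, so it is not on the scale of the CNT weights. The median 3CK weight was 0.175 (0.0541 to 0.276). Of the 20 members 11 lay between 0.1 and 0.8, and 13 lay below the middle 90% of the pair shares. Depth and weight were only weakly related over the 83 CNT members (Pearson's r = -0.20, Spearman's rho = -0.18). Over the 20 3CK members they had the opposite sign (r = 0.43, rho = 0.60). Both are descriptions over barcodes of 1 library.

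**Figure D3:**
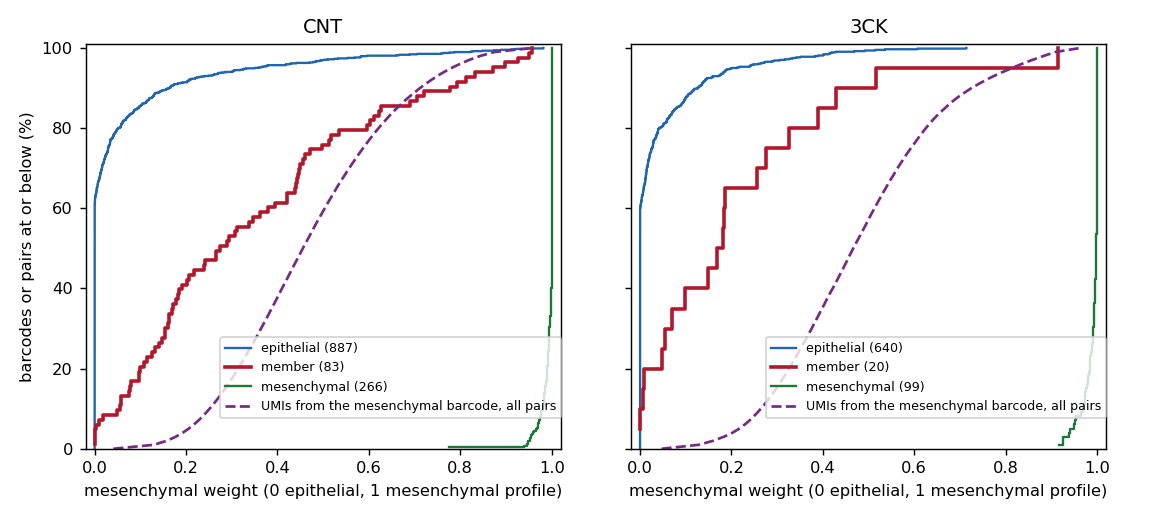
Cumulative percent of barcodes or pairs (y axis) at or below a mesenchymal weight (x axis, 0 for the epithelial and 1 for the mesenchymal profile) in CNT (left) and 3CK (right), for members, epithelial and mesenchymal barcodes and, for the pair sums, the mesenchymal share of the UMIs. The member curve climbs gradually from 0 to 0.957 in CNT, left of the pair curve over most of its course and right of it at the top. The epithelial and mesenchymal curves step at 0 and 1, and these barcodes set the profiles of their own library.

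Depth and the collagen of the rule, which did not enter the weight, differed between members of low, middle and high weight. TTR and decorin are among the genes that set the weight, so their values in these ranges only describe it. The 17 CNT members below 0.1 had a median depth of 109653 UMIs, 813 TTR UMIs per 10000 and 8.41 collagen UMIs per 10000. The 59 members between 0.1 and 0.8 had medians of 89102 UMIs, 519 for TTR and 22.7 for collagen, and the 7 above 0.8 had 47189, 14.0 and 10.6. DCN, which encodes decorin (chr12:91140484-91183217, minus strand), had medians of 0.223, 3.77 and 0 UMIs per 10000 in these 3 ranges. The low range thus had the deepest median member and the middle range the most collagen. The 7 highest members had 7.52 to 94.4 TTR UMIs per 10000, and 6 of them had fewer than 3 EPCAM UMIs per 10000. Of the 7, 4 had no DCN UMI, and the highest had 8.22 per 10000, near the mesenchymal median of 9.13.

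The weight of those 7 members rested on the hepatic list and the most abundant genes. The summed level of the 25 epithelial junction genes in them ran from 8.63 to 39.6 UMIs per 10000 with a median of 29.2, against medians of 39.4 in epithelial and 3.51 in mesenchymal barcodes. When the hepatic list and genes of 1000 CPM or more were left out of the weight, leaving 542 genes, 1 member stayed above 0.8, 68 of 83 (81.9%) lay between 0.1 and 0.8, and 14 below 0.1. The median weight was then 0.290. That setting was added after the values were seen.

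Gene groups were compared on pooled counts: the UMIs of all barcodes of a class were summed and scaled to CPM. The member pool held 7446936 UMIs in CNT, the epithelial pool 66162325 and the mesenchymal pool 17350190, and in 3CK the pools held 2159219, 63484173 and 8990151. As background, of 9428 genes with at least 10 CPM in either pool, 4.6% were 2-fold or more higher and 1.9% 2-fold or more lower in CNT members than in the epithelial pool, with a median log2 ratio of -0.10. Over 10266 genes, 8.54% were higher and 18% lower by 2-fold in members than in the mesenchymal pool, with a median of -0.36. Since the choice of members fixes the direction on genes that go with EPCAM or collagen, the counts below describe the members and are not evidence for a direction. The lists' medians and ranges are drawn in the plot of list medians.

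The epithelial junction genes were present in members at most of the epithelial level. The 25 genes of this list had a median log2 ratio of -0.51 to the epithelial pool, with all 25 lower and 0 of 25 past 2-fold, and a median of 4.09 to the mesenchymal pool, with 23 of 24 measured genes 2-fold or more higher. CDH1, which encodes E-cadherin, was at 136 CPM in the epithelial pool, 93.3 in members and 13.5 in the mesenchymal pool. CLDN7, a claudin, was at 400.4, 287 and 7.90, and FXYD3, a small regulator of the sodium pump, at 511, 399 and 8.99. ESRP1, a splicing factor of epithelial cells, was at 37.7, 26.7 and 1.44. The range within the list was narrow, from -0.21 for the transcription factor GRHL2 to -0.85 for the tight junction protein TJP3. The keratins KRT18 and KRT8 did not separate the classes as sharply. KRT18 was at 4275, 4972 and 5379 CPM and KRT8 at 3114, 3226 and 3486. Other keratins did: 4 of 6 measured were 2-fold or more lower in the mesenchymal than in the epithelial pool. The median log2 ratio of the 6 was -1.61. In members 0 of 6 were past 2-fold against the epithelial pool, with a median of -0.24. Against the mesenchymal pool 3 of 5 measured keratins were 2-fold or more higher in members.

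Hepatic and intestinal genes followed the same order. The 17 measured genes of the hepatic list had a median log2 ratio of -0.47 to the epithelial pool (0 of 17 past 2-fold) and 5.04 to the mesenchymal pool (17 of 17 higher by 2-fold). APOA1, the main protein of high-density lipoprotein, was at 11619 CPM in the epithelial pool, 8373 in members and 253 in the mesenchymal pool. AFP, the fetal serum protein alpha-fetoprotein, was at 7657, 3928 and 173, the lowest ratio of the list at -0.96. The enterocyte list had a median of -0.74 to the epithelial pool, and 4 of 12 measured genes were 2-fold or more lower, more than the 1.9% of all genes. FABP1, a fatty acid carrier of absorptive cells, was at 1057, 791 and 10.6 CPM, and RBP2, a retinol carrier, at 73.6, 30.2 and 0.576.

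Secretory genes had a lower median in members than in the epithelial pool. The goblet and secretory list had a median log2 ratio of -0.67 to that pool. Of its 7 measured genes 2 were lower by 2-fold, more than the 1.9% of all genes. Of 12 measured endoderm transcription factors 1, HNF4G, was lower by 2-fold, with a log2 ratio of -1.42. CDX2, which sets intestinal identity, was at 82.4, 73.5 and 30.6 CPM in the epithelial, member and mesenchymal pools.

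The matrix genes that the rule did not use were between the pools too, closer to the mesenchymal one on the log scale. Of 19 measured genes of this list 15 were 2-fold or more higher in members than in the epithelial pool, with a median log2 ratio of 1.81, and 14 of 19 were 2-fold or more lower than in the mesenchymal pool, with a median of -1.34. DCN was at 10.5 CPM in the epithelial pool, 462 (447 to 478) in members and 1255 in the mesenchymal pool. LUM, which encodes lumican, was at 94.99, 495.5 and 1372, and POSTN, a matrix protein of connective tissue, at 3.02, 83.3 and 362. Over the 83 members the summed matrix list followed the 3 collagens of the rule (Pearson's r = 0.74, Spearman's rho = 0.71), a description over barcodes of 1 library.

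Mesenchymal regulators and receptors came with the matrix genes. Of 11 measured genes of the mesenchymal identity list 10 were 2-fold or more higher in members than in the epithelial pool, with a median of 3.66, and 13 of 15 were 2-fold or more lower than in the mesenchymal pool. HAND2, a transcription factor of gut mesenchyme, was at 0.846 CPM in the epithelial pool, 27.5 in members and 104 in the mesenchymal pool. ZEB2, a repressor of E-cadherin, was at 0.68, 16.4 and 115, and TCF21, a transcription factor of fibroblast precursors, at 0.363, 13.8 and 48.4. THY1, a surface protein of fibroblasts, was at 0.831, 52.1 and 118. Members thus had these regulators at a lower level than the mesenchymal pool, and ZEB2 had the lowest ratio of the list at -2.82.

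The list of epithelial-mesenchymal transition genes had a median log2 ratio of 0.87 to the epithelial pool, with 6 of 13 measured genes 2-fold or more higher, and -1.12 to the mesenchymal pool, with 10 of 16 lower. VIM, the intermediate filament vimentin, was at 1002 CPM in the epithelial pool, 1833 in members and 3989 in the mesenchymal pool. Basement membrane genes were mixed, with a median of 0.08 to the epithelial pool, 5 of 15 higher and 1, LAMA1, lower by 2-fold. LAMA1, a laminin chain, was at 161 CPM in the epithelial pool, 64.1 in members and 14.1 in the mesenchymal pool, while the matrix glycoprotein SPARC was at 341, 1159 and 2294. Of 8 measured smooth muscle genes 4 were higher than in the epithelial pool by 2-fold, among them DES, which encodes desmin, at 0.68, 16.8 and 76.5 CPM.

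Genes of dividing cells lay between the pools as well. Of 13 measured G2 and M phase genes 10 were 2-fold or more higher in members than in the epithelial pool, with a median of 1.47, and 5 of 15 were 2-fold or more lower than in the mesenchymal pool. CENPF, a kinetochore protein, was at 5.12 CPM in the epithelial pool, 23.6 in members and 44.1 in the mesenchymal pool. Of 9 measured S phase genes 0 were past 2-fold against the epithelial pool. At 10000 UMIs, 16.9% of members (9.54 to 26.7) carried 2 or more UMIs of the G2 and M phase genes TOP2A, MKI67, CENPF, UBE2C and BIRC5, against 4.85% of epithelial and 26.3% of mesenchymal barcodes, and 31.3%, 12.1% and 42.5% before thinning.

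Markers of other cell types were mostly sparse, least so for the leukocyte list. The genes that reached 10 CPM in either pool were 3 of 11 endothelial, 2 of 10 neural and glial, 5 of 10 leukocyte, 4 of 12 mesothelial and 3 of 9 pluripotency genes. The summed leukocyte list had medians of 1.79 UMIs per 10000 in CNT members, 2.33 in epithelial and 0.473 in mesenchymal barcodes. The leukocyte gene PTPRC had a UMI in 1 of 83 CNT members and 0 of 20 3CK members at 10000 UMIs, and 0 of 20 allows a share of barcodes with such a UMI of up to 15.0% (3 counts of 20), which does not limit the share of cells that express the gene. Dissociation stress genes had a median log2 ratio of 0.22 to the epithelial pool, with 1 of 11 past 2-fold.

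**Figure D4:**
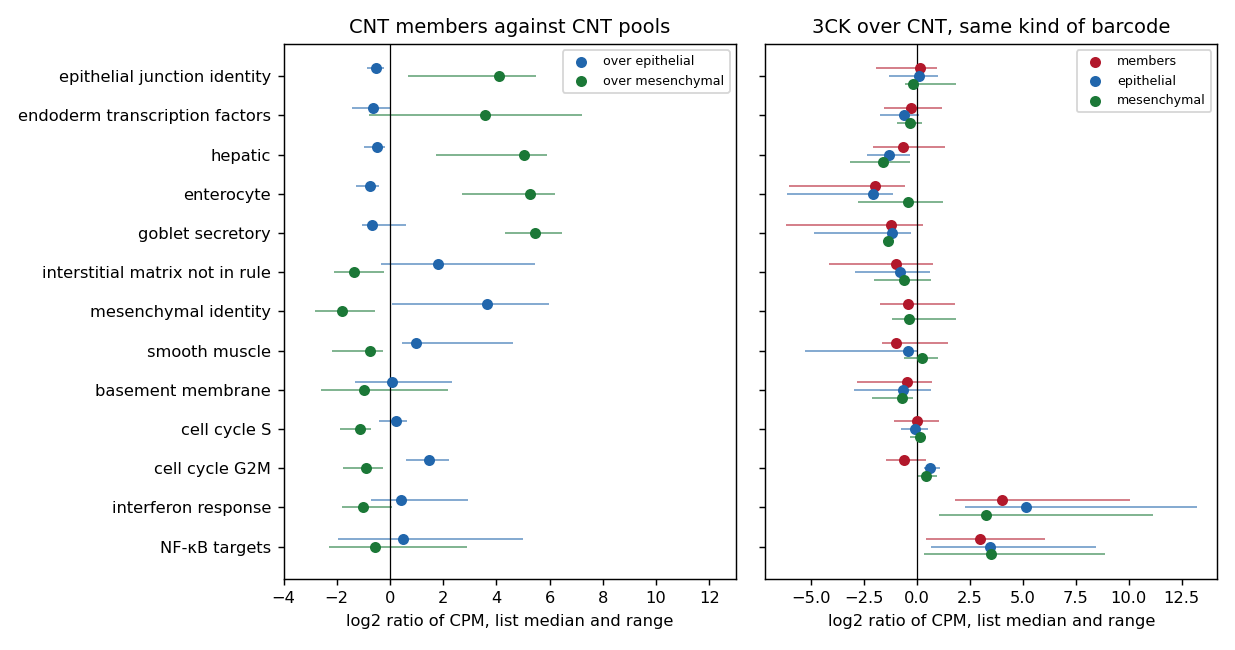
Median (point) and range (line) of the log2 ratio of CPM over the measured genes of each list (x axis; lists on the y axis) with at least 3 measured genes: CNT members against the epithelial and mesenchymal pools (left), and 3CK against CNT for members, epithelial and mesenchymal barcodes (right). The junction list has medians of -0.51 and 4.09 against the epithelial and mesenchymal pools, the matrix list 1.81 and -1.34, and the interferon list 4.03 in 3CK against CNT members.

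Both programmes were seen in the same barcodes and not only in the pool. At 10000 UMIs per barcode, 80.7% of CNT members (67 of 83, 70.6 to 88.6) had a UMI of DCN or LUM together with a UMI of CLDN7 or FXYD3, none of which the rule used. The share was 39.3% in epithelial and 14.7% in mesenchymal barcodes. Transcripts free in the suspension are counted in every class, members included, and their level was not estimated. Before thinning the shares were 95.2%, 79.5% and 54.1%, at median depths of 87633, 70869 and 55581 UMIs. DCN alone was found in 71.1% of members, 8.23% of epithelial and 94.0% of mesenchymal barcodes, and CDH1 in 49.4%, 64.5% and 8.65%. In 3CK the double share was 65.0% (40.8 to 84.6) in members, 16.9% in epithelial and 16.2% in mesenchymal barcodes.

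The summed lists gave the same picture barcode by barcode. The 22 matrix genes outside the rule had 3.75 to 70.9 UMIs per 10000 in CNT members, with a median of 21.6, against medians of 5.71 in epithelial and 59.6 in mesenchymal barcodes. The 25 junction genes had 8.63 to 80.5, with a median of 28.9, against 39.4 and 3.51. Across the 83 members the 2 sums had Pearson's r = -0.31 and Spearman's rho = -0.37, and CNT members with more matrix transcripts tended to have fewer junction transcripts. Over the 20 3CK members the values were -0.20 and -0.06. No p is given, since barcodes of 1 library are not replicates and both sums share a total.

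Across all genes the CNT members lay mostly between the 2 pools. Of 3815 genes with at least 50 CPM in any pool, 2381 (62.4%, 60.9 to 64.0) had a CPM between the epithelial and mesenchymal values, 430 were above both and 1004 below both. The best-fitting mixture of both pools, with a mesenchymal weight of 0.245, came within 2-fold of the members for 99.2% of genes. The epithelial pool alone did so for 92.9% and the mesenchymal pool alone for 75.7%. The weight was chosen on the members' own values, which favours the mixture in advance, so its closer fit is a description only. Few genes left the range by much: 0.131% were above both pools by 2-fold or more (5 of 3815) and 0% below both (0 of 3815), where 0 carries no test. In 3CK 51.3% of 3778 genes were between the pools, and the best mixture, with a mesenchymal weight of 0.206, was within 2-fold for 97.8%.

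Where a gene sat between the pools was measured as its position, 0 at the epithelial CPM and 1 at the mesenchymal CPM. Over the 266 genes higher in epithelium the median position was 0.354, and over the 319 higher in mesenchyme 0.248. The junction list had a median of 0.312 and the hepatic list 0.286, the matrix list 0.314 and the mesenchymal identity list 0.237. Among all lists placed this way the medians ran from 0.146 in the enteroendocrine list (3 genes) to 0.452 in the enterocyte list (10 genes). Single genes lay away from the medians of their lists. AFP was at 0.498 and LAMA1 at 0.660, both further towards the mesenchymal pool, whereas HAND1, a transcription factor of mesenchyme, was at 0.654 within the identity list.

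The 5 genes above both pools by 2-fold came largely from single members. MLN, which encodes the gut hormone motilin, was at 270 CPM in members, 44.6 in the epithelial and 0.461 in the mesenchymal pool, and 2002 of its 2008 UMIs came from 1 member, without which it was at 0.814 CPM. GHRL, the hormone ghrelin, was at 52.6 CPM in members, with 389 of 392 UMIs from the same member, and SCT, the hormone secretin, at 70.0, with 355 of 521. That barcode had 73260 UMIs, a weight of 0.777, 252 TTR, 49.4 collagen and 2.73 EPCAM UMIs per 10000. SST, which encodes somatostatin, was at 182 CPM with 1120 of 1353 UMIs from 1 member, and GUCA2A, the secreted peptide guanylin, at 64.5 CPM with 346 of 480. Without the leading member SST was at 32.0 and GUCA2A at 18.2 CPM. These values describe single barcodes that carry a hormone or peptide beside collagen, and not the members as a group.

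The CNT genes furthest below both pools had long gene bodies. The 29 genes at least 1.5-fold below both pools included DNAH14, a dynein chain at 25.6 CPM in members against 47.8 and 57.7, MAML3, a Notch coactivator at 27.5 against 51.2 and 74.6, and AUTS2 at 18.3 against 33.7 and 51.4. Of 28 with an annotated span in GENCODE 44, 26 (92.9%) were over 100 kb, against 22.6% of the 3815 genes, and their median span was 256 kb against 29.6 kb. Of all 1002 genes below both pools with a span, 37.2% were over 100 kb, with a median span of 63.7 kb. The nuclear RNA MALAT1, which the rule limits, moved with this: it was at 1741 CPM in members, 2961 in the epithelial and 5596 in the mesenchymal pool.

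A lower MALAT1 limit, added after these values were seen, changed the set. With MALAT1 under 20 per 10000 in every class, 62 members remained, MALAT1 was at 535 CPM in members, 307 in the epithelial and 529 in the mesenchymal pool, and 73.1% of 3391 genes were between the pools. The genes at least 1.5-fold below both pools were then 5, of which 1 of 4 with a span was over 100 kb, against 13.8% of all genes there. In 3CK, where MALAT1 was at 3446, 3146 and 3861 CPM, 8 of 32 such genes were over 100 kb, against 18.0% of all 3776 genes. Of all 1218 genes below both 3CK pools 16.4% were over 100 kb.

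The genes with the largest ratios to each pool were partly carried by single members. Against the epithelial pool the 10 largest log2 ratios, from 4.82 to 6.62, were SST, THY1, TNNT3, HGF, DCN, MEG8, LOXL2, COL6A3, CXCL14 and MEG3. Without its leading member SST had a ratio of 4.12. HGF, a growth factor that mesenchyme sends to epithelium, was at 1.31 CPM in the epithelial pool, 71.3 in members and 324 in the mesenchymal pool, and CXCL14, a chemokine of gut fibroblasts, at 7.62, 219 and 505. The 10 smallest ran from -2.09 for UNC13C to -1.11 and included MTTP, which loads lipid onto lipoproteins, at 96.0 CPM in the epithelial pool and 43.8 in members. Against the mesenchymal pool the largest were MLN at 9.19 and GUCA2A at 8.54, followed by CEACAM5, LGALS4, ANXA13, PHGR1, GHRL, TFF3, MT1H and FABP1. LGALS4, an intestinal galectin, was at 63.2 CPM in members, 41.8 without its leading member, and 0.519 in the mesenchymal pool. Without the leading member of each gene MLN had a ratio of 0.82 and GHRL was at 0.407 CPM against 0.576 in the mesenchymal pool, so neither was then higher by 2-fold. GUCA2A had a ratio of 6.72 without its leading member, CEACAM5 5.50, MT1H 4.99 and TFF3 5.38. The smallest ran from -3.31 for SAMD3 to -2.82 for ZEB2 and included SOX5, at 201 CPM in the mesenchymal pool and 25.6 in members.

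Some members met the collagen limit through 1 gene. In 11 of 83 CNT members (13.3%, 6.81 to 22.5) at least 80% of the collagen UMIs came from 1 of the 3 genes, COL3A1 in 8, COL1A2 in 2 and COL1A1 in 1. The share was 2.63% (7 of 266) in mesenchymal barcodes. In 3CK it was 8 of 20 members (19.1 to 63.9%), COL1A2 in 4, COL3A1 in 3 and COL1A1 in 1, against 8.08% (8 of 99) in mesenchymal barcodes. These members had medians of 6.49 and 6.58 collagen UMIs per 10000 in CNT and 3CK, near the limit.

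Most of them had little or no decorin. Of the 11 CNT members 6 had no DCN UMI, against 4 of the other 72, and their pooled DCN was 121 CPM against 509. Of their 108 DCN UMIs 97 came from 1 member, without which DCN was at 13.9 CPM. LUM was at 224 CPM in the 11 and 533 in the others, against 94.99 in the epithelial pool. Without the member that led DCN, LUM was at 137 CPM in these members. Their 22 matrix genes outside the rule had a median of 11.9 UMIs per 10000, against 24.2 in the other 72 members and 5.71 in epithelial barcodes. These matrix genes include DCN and LUM, and their summed median in the 11 thus lay between epithelial barcodes and the other members.

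The weights of these 11 CNT members were spread. The median was 0.0584 against 0.300 in the others, with 7 below 0.1 and TTR of 90.9 to 1314 UMIs per 10000. One more lay at 0.275, and 3 lay between 0.813 and 0.899 with TTR of 7.52 to 14.0, so the 11 did not share 1 profile. In 3CK 6 of 8 had no DCN UMI against 0 of the other 12, DCN was at 17.6 against 580 CPM, and the median weight was 0.0280 against 0.230. The highest weight among these 8 was 0.256.

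A doublet score was computed in each library with Scrublet, which ranks barcodes by their likeness to summed pairs of barcodes. Among the highest 52 of 2539 scored CNT barcodes there were 13 of 83 members (15.7%, 8.61 to 25.3), 1 of 887 epithelial (0.113%) and 1 of 266 mesenchymal barcodes (0.376%). Among the highest 16 of 1414 in 3CK there were 8 of 20 members (19.1 to 63.9%), 4 of 640 epithelial (0.625%) and 1 of 99 mesenchymal barcodes (1.01%). Scoring also took barcodes outside the depth or MALAT1 limits. These held the remaining high scores in both libraries, and in CNT most of the 52. The number taken as highest follows from an assumed 0.8% per 1000 barcodes and not from the data. The score uses the same transcripts that chose the members and is not an independent measure of them.

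Most 3CK members carried the cytokine response. The summed interferon list had 20.6 to 560 UMIs per 10000 in 3CK members with a median of 291, and 4.69 to 227 in CNT members with a median of 30.1. The ranges overlapped, and 16 of 20 3CK members lay above the highest CNT member. The lowest and second-lowest 3CK members, at 20.6 and 39.2, were near the CNT median. Between the pooled members 26 of 26 interferon genes were 2-fold or more higher in 3CK, with a median log2 ratio of 4.03, where 7.26% of 9572 genes (10 CPM or more in 1 of the 2 member pools) were higher and 6.36% lower by 2-fold and the median of all genes was 0.05. The list's median was 5.16 between the epithelial pools and 3.28 between the mesenchymal pools. Whether the response of members differs from either was not tested.

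Single genes show the size of this response. CXCL10, a chemokine that draws T cells, was at 2.15 CPM (1.23 to 3.49, 16 UMIs) in CNT members and 2294 (2231 to 2359) in 3CK members, a log2 ratio of 10.06 (9.36 to 10.87). One 3CK member held 3323 of the 4954 CXCL10 UMIs, and without it the level was 800.1 CPM and the log2 ratio 8.54. The median 3CK member had 2.52 CXCL10 UMIs per 10000, and 19 of 20 had a UMI. GBP5, a guanylate-binding protein induced by IFN-γ, was at 0.537 (4 UMIs) and 350 CPM, and PLAAT4, a phospholipase, at 34.4 and 3734. IDO1, which breaks down tryptophan, had 2 UMIs in CNT members and 576 in 3CK members, a ratio of 9.96 (8.10 to 13.01). The chemokine CCL5 had 0 UMIs in CNT members and 66.7 CPM in 3CK members, which is a log2 ratio of at least 7.37 against 3 UMIs over the CNT pool, but 71 of its 144 UMIs came from 1 member, without which the level was 35.8 CPM and the bound 6.47. The other 5 of the 10 largest ratios were CXCL11, CCL3, PIGR, BATF2 and IFIT2, of which CCL3 had 85 of 123 UMIs in 1 member. B2M, the light chain of MHC class I, ran from 1.10 to 79.3 UMIs per 10000 in CNT members and from 7.29 to 139 in 3CK members, with medians of 12.9 and 82.8.

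NF-κB targets were higher in 3CK members too, 16 of 20 by 2-fold, with a median of 2.98. BIRC3, an inhibitor of apoptosis, was at 2.42 CPM in CNT members and 161 in 3CK members. Differentiated epithelial genes were lower. Of 11 measured enterocyte genes 10 were lower by 2-fold in 3CK members, with a median of -1.98, and of 17 hepatic genes 7, with a median of -0.65, against -1.30 between the epithelial pools. REG4, a secreted lectin, was at 67.7 CPM in CNT members and 0.926 (2 UMIs) in 3CK members. The smallest ratio was MLN at -9.19 (-14.49 to -6.71, 1 UMI in 3CK members), which rests on 1 CNT member. Also among the 10 smallest were GHRL, MT1H, GUCA2A, SST, CUBN, PHGR1 and C20orf204, of which GHRL, MT1H, GUCA2A and SST also took most of their CNT UMIs from 1 member.

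Matrix genes had a lower median in 3CK members, as in the 3CK mesenchymal pool. Of 19 measured genes 9 were 2-fold or more lower, with a median of -0.99, against -0.62 between the mesenchymal pools. DCN was at 462 CPM in CNT and 388 in 3CK members, and POSTN at 83.3 and 26.4. CXCL14 was at 219 and 412 CPM. Without the leading 3CK member of each, DCN was at 251, POSTN at 17.1 and CXCL14 at 228 CPM. The junction list had a median of 0.14, with 2 of 25 genes lower by 2-fold, among them FXYD3 at 399 and 104 CPM.

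Of the 10 genes furthest above both 3CK pools, most were again carried by few members. PENK, which encodes proenkephalin, had 225 of 227 UMIs in 1 member, the chemokine CXCL6 211 of 222, and DEFB1, an epithelial defensin, 1017 of 1244. APOC3, an apolipoprotein, was different: all 20 3CK members had APOC3 UMIs, and it was at 2623 CPM in members, 996 in the epithelial and 9.79 in the mesenchymal pool, and at 2214 CPM without the leading member. AHSG, SERPINA3 and A2M, which are plasma proteins of the liver, were also above both pools, at 169, 126 and 157 CPM against 42.3, 30.6 and 68.1 in the epithelial pool. They had UMIs in 14, 14 and 11 of the 20 members, with medians of 2, 2.5 and 1 UMI, and were at 115, 70.8 and 117 CPM without the leading member of each. The hepatic list as a whole had a median log2 ratio of 0.43 to the 3CK epithelial pool, with 2 of 17 measured genes higher and 0 lower by 2-fold, against 3.91% and 2.03% of 9259 genes and a median of -0.07 over all of them. TTR was at 18978 CPM in members and 20408 in the epithelial pool.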

How the data were processed

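Per the file headers, Cell Ranger 7.1.0 made the deposited UMI counts per gene and barcode from 1 10x 3′ library for each of CNT and 3CK, and the submitters' processing notes name GRCh38 as well. No source used here gives the authors' annotation version. Gene positions and spans come from GENCODE 44 (GRCh38) through the gene identifier, with 36366 of 36601 matched. Members, pools and limits were applied to these counts as described in the report, and the members and gene lists were chosen with earlier results of these data known. No barcode was removed as a doublet. Leaving out the highest Scrublet scores (scanpy 1.11.5) was an alternative.

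Counts of each class were summed per library and scaled to CPM, with exact Poisson intervals for levels and exact binomial (Clopper-Pearson) intervals for shares and ratios of counts. Medians over barcodes have order-statistic intervals. The Poisson and binomial intervals cover counting error only, and the order-statistic intervals the spread over barcodes of 1 library. All are at 95%, and none covers differences between cultures, because each group is 1 library. Ratios against 0 UMIs use 3 UMIs over the pool. Genes at 10000 UMIs are exact rarefaction values. UMI shares at equal depth used 1 seeded draw of 10000 UMIs from each barcode. Pair sums are arithmetic over every epithelial and mesenchymal pair. The weights, rarefaction and intervals were tested on simulated data. Genes entered lists at 10 CPM in either pool (interferon list between libraries, 1 CPM). Named genes were, above 50 CPM in the higher pool, the 10 largest and 10 smallest ratios of each contrast, the 10 furthest above and below both pools, and of each list the highest and the extreme ratios. Some genes that this rule names are not reported here. Python 3.11.15, numpy 2.4.6, scipy 1.17.1 and pandas 2.3.3 were used.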

Additional observations from a re-analysis of the deposited data

How the results depend on the processing

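Across 16 alternative settings of 9 results, 99 values were recomputed. Of these, 82 stayed within the interval of the reported value and 17 moved beyond it. That interval covers counting error for shares and the spread over member barcodes for medians and their ratios. For the interferon list it is the median of the interval ends of its genes. The interferon list stayed higher in 3CK members than in CNT members in every setting where it was recomputed. Shares, weights and TTR levels have no direction that a setting could reverse. No setting tests a difference, since each condition is 1 library. No paired analysis was possible because each condition has 1 library and no result comes from a test across samples. The share of genes between the epithelial and mesenchymal levels, 62.4%, moved under more settings than any other of the 9 results. It was 54.9% with no MALAT1 limit, 57.8% with a minimum of 10 CPM and 59.6% without the highest doublet scores. With mitochondrial genes, ribosomal genes and the 50 most abundant genes left out of the total it was 60.7%. It was 55.6% with EPCAM of at least 5 and 56.5% with collagen of at least 20 per 10000. Stricter limits also lowered the share of members, by EPCAM of at least 5 to 3.57% in CNT and 1.41% in 3CK, and by collagen of at least 20 to 2.81% and 0.117% (1 member), the largest change in ratio of any result, from 2.34%. The median mesenchymal weight of CNT members was 0.182 and 0.446 under the same 2 limits. TTR was 650 per 10000 UMIs when mitochondrial and ribosomal genes were left out of the total, and the 3CK share was 1.43% without the highest doublet scores. Of 19 values added after seeing the data, those with a MALAT1 limit of 20 gave 73.1% of genes between the levels, and those without members that took 80% of their collagen from 1 gene gave 59.4% and a 3CK share of 1.41%. The cause was not tested. The 20 members of 3CK limit the precision of every share there.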

Other observations

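Of the 7 CNT members with a mesenchymal weight above 0.8, several carried marker genes of other kinds. These genes were looked up after their values had been seen, as the ones furthest above both pools in each barcode, and each value rests on 1 barcode. A member of 78202 UMIs had 946 CPM of PTHLH, 294 of KRT6A, 230 of TP63 and 729 of MIR205HG, a set of genes known from stratified epithelium, where the epithelial pool had 0.348, 2.61, 1.71 and 19.2 CPM. Another, of 39885 UMIs, had 276 CPM of KRT14, 226 of CLCA2, 501 of CALML3 and 1203 of ITGB4, which are also genes of basal squamous cells, and all of its collagen UMIs were of COL1A2. PTHLH, CLCA2, TMEM40, SFN, MIR205HG, CDH3 and IGFBP2 were among the 25 leading genes of both barcodes. KRT14 had a UMI in 15 other eligible CNT barcodes and 5 or more UMIs in 4.

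A member of 36225 UMIs had 83 UMIs of ZSCAN4 (2291 CPM), 51 of H3.Y (1408 CPM) and 68 of ZNF114. ZSCAN4 and H3.Y are known from the activation of the embryonic genome. ZSCAN4 had a UMI in 73 other eligible barcodes and 5 or more in 1. This barcode had 268 MALAT1 UMIs per 10000, near the limit of 300, and 14.2% mitochondrial UMIs. A member of 47189 UMIs had 2373 CPM of SST, 1271 of the endothelial connexin GJA4, 954 of the transcription factor GATA2 and 954 of CD14. A member of 76596 UMIs, with 73.8 collagen UMIs per 10000, had 1593 CPM of the neuropeptide gene NPY and 3251 of the growth factor AREG. A member of 26353 UMIs was led by WNT6 at 417 CPM and TCIM at 1025. The last, of 55638 UMIs and 87.5 collagen UMIs per 10000, had leading genes of few UMIs, such as IFI44L with 7 and LYVE1 with 8, and no set of markers was read from it. What these barcodes held beyond the listed transcripts was not tested.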
